A study of Brassica napus with 6 samples.

Results

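The related miRNAs miR390 and miR391 were followed in rapeseed (Brassica napus), in young pistils and siliques (the seed pods) of a short-silique line (SS) and a long-silique line (LS). They were taken as every row of the known miRNA count tables with family number miR390 or miR391, and every degradome entry whose miRNA name has one of these numbers. This gave 2 of 69 known miRNAs, ath-miR390a-5p and ath-miR391-5p, and 3 of 577 entries in the SS degradome table against 0 of 162 in the LS degradome table. A degradome library collects the 5′ ends of cut mRNAs and so lists positions where a miRNA may direct cleavage. Both lines were backcross progeny of the cross 8008 × 4942, grown in a field. Tissue covered 0 to 7 days after pollination with about 12 plants per stage, so each library averages over stages and plants. There were 2 small RNA libraries of the SS line and 2 of the LS line, and 1 degradome library of each line.

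In plants, miR390 is loaded into the Argonaute protein AGO7 and directs it to the non-coding TAS3 transcripts. RDR6 and DCL4 then turn these transcripts into phased small interfering RNAs, called tasiRNAs, that act on the auxin response factor genes ARF2, ARF3 and ARF4. In Arabidopsis this route is known for its part in leaf polarity, the timing of the juvenile to adult change and lateral root growth, and ARF3 is known for its part in shaping the pistil. miR391 is a relative of miR390 with a diverged mature sequence, found in the mustard family. Neither TAS3 transcripts nor tasiRNAs were analysed here.

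The mature miR390 sequence and the sites assigned to it are shown because they define what the degradome results rest on. The miRNA sequence is the one the authors' degradome tables give for bra-miR390-5p, written 5′ to 3′ in DNA letters, with the seed (bases 2 to 8) in capitals. The sites are written 5′ to 3′ along the mRNA, and their capitals mark bases left unpaired with miR390 in the authors' alignment.
bra-miR390-5p: aAGCTCAGgagggatagcgcc
BnaA01g27230D: ggcTctTtGcctcctgagctC
BnaC01g34700D: ggcTctTtGcctcctgagctC
BnaA09g50920D: ggtgttatGcctcctgaAgctt
The count tables pair no name with a sequence, so that ath-miR390a-5p and bra-miR390-5p are the same molecule was not tested here, and no sequence of miR391 is shown. bra-miR390-5p was 21 bases long and began with A, the first base that AGO7 is known to favour. Of the 32 known miRNA names with a sequence in the degradome tables, 4 began with A and 23 with T. None of the other 144 names with a sequence, predicted miRNAs included, shared its bases 2 to 8. The nearest of them, ahy-miR156c, was 9 edits away from it. miR391 was not among these names, so the comparison does not cover it.

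The authors' library totals ran between 6046506 and 6403019 reads in the SS libraries and between 6409382 and 6739286 in the LS libraries. Known miRNAs made up 6.51% and 6.50% of these totals in the SS libraries, against 4.82% in each LS library. The size of a line difference therefore depends on whether a miRNA is set against all reads or against the other known miRNAs. Over all known miRNAs, reads of both LS libraries agreed within sampling noise (a chi-square of 0.980 per degree of freedom, and p = 0.528 by 10000 exact binomial draws), so LS levels are given as 1 sample, while edgeR's test and the permutation test kept the LS libraries separate unless stated, which may make their p-values too small. Reads of both SS libraries agreed less well (1.42, with p = 0.0104 by exact binomial draws). The labels name replicated experiments but tie no library to one, so a p-value printed here reads the spread of these 4 libraries alone, and that spread may be technical. The tables hold miRNAs only, so the tissue label was not checked against marker genes, and fewer cells of a type cannot be told apart from less miRNA per cell.

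miR390 was the more abundant member and was higher in SS. ath-miR390a-5p had 4274 and 4622 reads in the SS libraries, against 3037 and 3036 reads in the LS libraries. Scaled to the authors' library totals, this was 707 and 722 reads per 1000000 (RPM) in the SS libraries, against 474 and 450 RPM in the LS libraries. Both SS libraries lay above both LS libraries, and the lowest SS level was 1.49 times the highest LS level. Its mean was 714 ± 10.6 RPM in SS (SD, n = 2) and 462 RPM in LS (95% Poisson interval of the summed reads 450 to 474). Within LS, library 1 stood at 1.05 times the level of library 2, a gap at the edge of counting noise (two-sided exact binomial test of their reads, p = 0.0495), and the SS libraries differed less (exact binomial p = 0.324). By read number it was the 9th of 69 known miRNAs in both SS libraries, and the 7th and 8th in the LS libraries.

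miR391 stood about an order of magnitude lower and was also higher in SS. ath-miR391-5p had 351 and 380 reads in the SS libraries, against 210 and 216 reads in the LS libraries. This was 58.1 and 59.3 RPM in SS, against 32.8 and 32.1 RPM in LS. The lines did not overlap here either, and the lowest SS level was 1.77 times the highest LS level. The mean was 58.7 ± 0.917 RPM in SS (SD, n = 2) and 32.4 RPM in LS (95% Poisson interval 29.4 to 35.6). The libraries of a line differed by less than counting noise (exact binomial p = 0.767 in SS and 0.846 in LS). It ranked 22nd and 21st of 69 in the SS libraries, against 24th and 23rd in the LS libraries. Both SS libraries lay above both LS libraries in RPM for 80.8% of the 52 known miRNAs tested below, and on the TMM scale used there for 44.2%, both members included.

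**Figure D1:**
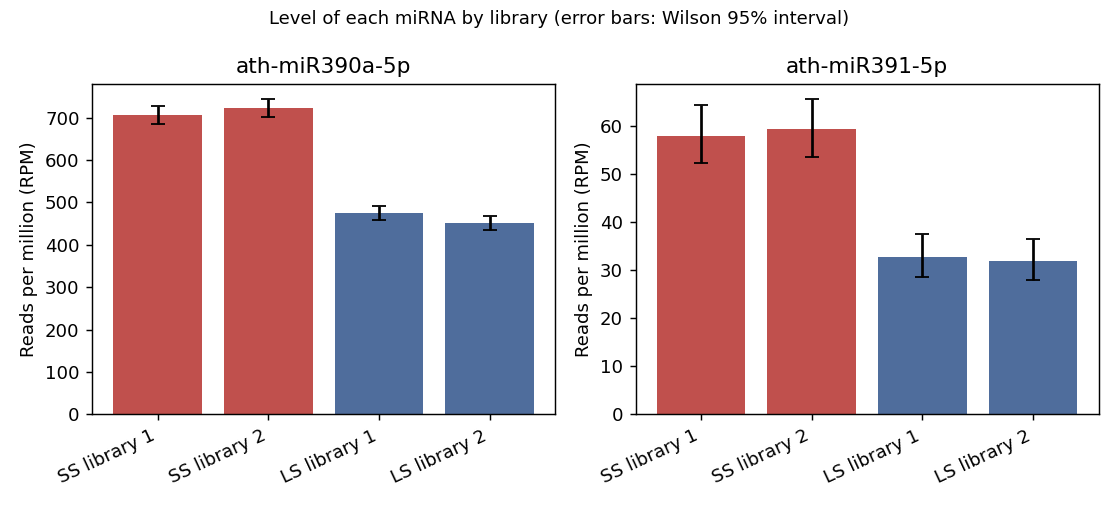
Level in RPM, by the authors' library totals, for ath-miR390a-5p (left panel) and ath-miR391-5p (right panel) in each small RNA library, with Wilson 95% intervals that cover counting error only. Both SS bars stand above both LS bars in each panel, 707 and 722 against 474 and 450 RPM for miR390 and 58.1 and 59.3 against 32.8 and 32.1 RPM for miR391.

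The line difference was tested with edgeR's quasi-likelihood test on all 52 known miRNAs with 10 or more reads in at least 2 libraries, scaled with TMM factors, which set each miRNA against the bulk of the others. Both members passed the Benjamini-Hochberg adjusted threshold of 0.05 upwards, where 34.6% of the tested miRNAs were called higher in SS and 51.9% in either direction. ath-miR390a-5p rose by 0.33 ± 0.04 on the log2 scale (SE, edgeR adjusted p = 5.89e-15), a fold of 1.26. ath-miR391-5p rose by 0.56 ± 0.08 (SE, edgeR adjusted p = 3.85e-10), a fold of 1.48. The median log2 fold change of all 52 was 0.12. With the LS libraries summed into 1 sample both remained called (edgeR adjusted p = 6.08e-09 for ath-miR390a-5p and 1.00e-05 for ath-miR391-5p, where 28.8% were called higher and 40.4% in either direction).

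The size of the change depended on the scaling, though its direction did not. With the authors' library totals the folds were 1.55 for miR390 and 1.81 for miR391, and 63.5% of the tested miRNAs were called higher and 5.77% lower, with a median log2 fold change of 0.41. With no factor on the known miRNA reads they were 1.15 and 1.34, with a median of -0.02. In both of these scalings, with RLE factors and with TMM, miR391 was the 12th and miR390 the 18th of 52 by log2 fold change, counted from the most raised. As a share of known miRNA reads, miR390 took 1.09% and 1.11% in the SS libraries, against 0.982% and 0.935% in the LS libraries. miR391 took 0.0892% and 0.0914% in the SS libraries, against 0.0679% and 0.0665% in the LS libraries. On this scale too both SS libraries lay above both LS libraries for each member. How many of all 52 did so was not counted on this scale. The 44.2% of the TMM scale cannot stand in for it, since TMM set SS higher. The median log2 fold change was 0.12 with TMM, against -0.02 with no factor. With no factor edgeR called 28.8% of all 52 higher.

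**Figure D2:**
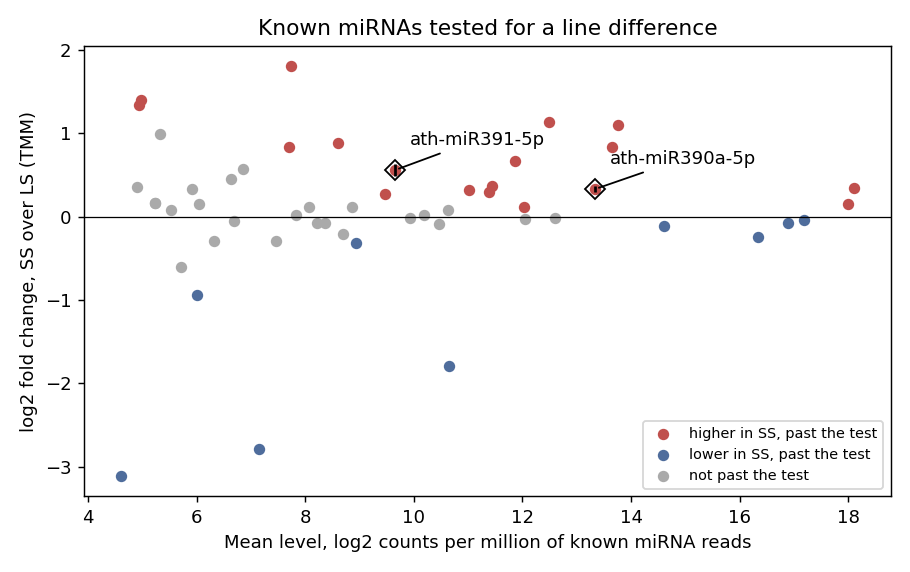
Log2 fold change of SS over LS on the TMM scale against mean level for the 52 tested known miRNAs, coloured by the outcome of edgeR's test. Open diamonds with SE bars mark ath-miR390a-5p at 0.33 and ath-miR391-5p at 0.56, both in the upper part of the plot and among the 18 called higher in SS.

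The authors' deposited table for each numbered pair of libraries gives the same direction for both members. For ath-miR390a-5p the authors' deposited table lists a log2 ratio of SS over LS of 0.58 in pair 1 and 0.68 in pair 2. For ath-miR391-5p the authors' deposited table lists 0.83 in pair 1 and 0.89 in pair 2. Neither carried the authors' mark of a changed miRNA in either pair. The authors' deposited table marks 14 of 69 miRNAs in each pair, and no marked miRNA had a log2 ratio smaller in size than 1.02 in pair 1 or 1.13 in pair 2. By the p-value in the authors' deposited table, which compares 1 library with 1 library, ath-miR390a-5p was the 8th smallest and ath-miR391-5p the 18th smallest in both pairs.

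Within the pair of relatives, the balance moved slightly towards miR391 in SS. miR391 made up 7.59% and 7.60% of the summed miR390 and miR391 reads in the SS libraries, against 6.47% and 6.64% in the LS libraries. Put the other way, there were 12.2 reads of miR390 for each read of miR391 in both SS libraries, against 14.5 and 14.1 in the LS libraries. The SS shares lay above the LS shares without overlap, but the Wilson 95% intervals of single libraries overlapped (6.86% to 8.39% in SS library 1 and 5.84% to 7.55% in LS library 2). The mean difference of SS minus LS was 1.04 percentage points (exact permutation test over the 4 libraries, two-sided, p = 0.333, the smallest p that 2 against 2 can give). With the reads summed by line, the difference was 1.04 points (Newcombe 95% interval 0.228 to 1.83), and Fisher's exact test on those reads gave p = 0.0128, which covers counting error only and was chosen after the data were seen. This share does not depend on how libraries are scaled, and it corresponds to a log2 fold change of miR391 that is 0.23 above that of miR390. A ratio of reads of different miRNAs is not a ratio of molecules, since how well each sequence is cloned was not tested.

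**Figure D3:**
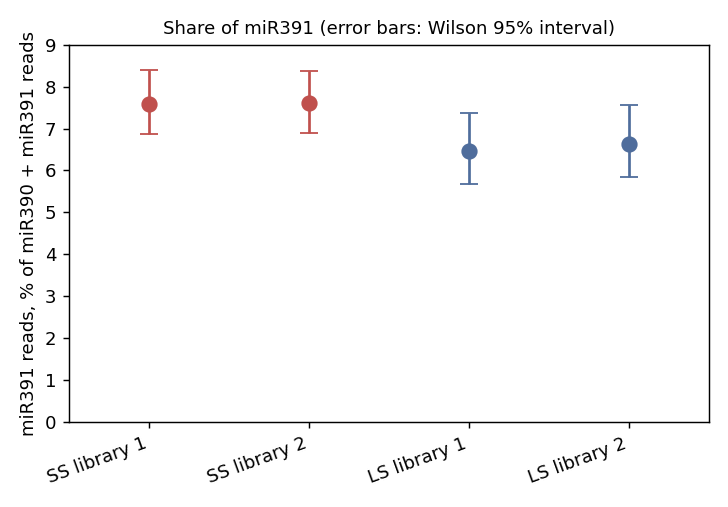
Share of ath-miR391-5p in the summed reads of ath-miR390a-5p and ath-miR391-5p in each small RNA library, with Wilson 95% intervals. The SS libraries sit at 7.59% and 7.60% and the LS libraries at 6.47% and 6.64%, with overlapping intervals.

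The miRNAs whose profiles over the 4 libraries were nearest to each member were found from log2 CPM on the TMM scale, each centred on its own mean, by Euclidean distance. With 4 libraries in 2 lines, such a distance mostly reads the size of the line difference. Nearest to ath-miR390a-5p were bna-miR167d at a distance of 0.0497, smo-miR156c at 0.0564 and bra-miR9553-5p at 0.0946. Nearest to ath-miR391-5p were ath-miR156a-5p at 0.124, bra-miR5654a at 0.210 and smo-miR156c at 0.212. The members lay 0.227 apart, which made miR390 the 4th nearest of 51 to miR391 and miR391 the 8th nearest to miR390.

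The tested names from other families that trigger tasiRNAs or phased small RNAs from coding genes showed no call with TMM. Of this list (miR161, miR393, miR400, miR472, miR173 and miR828), 6 names were in the count tables and 3 had enough reads. By edgeR's test with TMM 0 of these 3 were higher and 0 lower, 0 had an unadjusted p under 0.05, and DESeq2 and limma-voom called 0. Among all 52, edgeR called 51.9% and DESeq2 38.5% in either direction, and 3 miRNAs are too few to set apart from these shares. DESeq2 gave ath-miR400 and some others of the 52 no adjusted p, so its share among the rest is above 38.5%. Their median log2 fold change was 0.12, the same to 2 decimals as that of all 52 tested miRNAs. ath-miR393b-3p had 107 and 105 reads in the SS libraries, against 76 and 92 in the LS libraries. It was called higher with the authors' library totals alone among the scalings (edgeR adjusted p = 0.0131). Its family acts on the auxin receptor genes TIR1 and AFB2, but this name is the 3p arm. Whether this arm acts on them or triggers phased small RNAs was not tested. bna-miR161, from a family that acts on PPR genes in Arabidopsis, had 35 and 39 reads in SS, against 35 and 31 in LS. ath-miR400, which also acts on PPR genes there, had 11 and 36 reads in SS, against 19 and 13 in LS, so its lines overlapped. ath-miR393a-5p, ptc-miR393a-3p and ath-miR472-3p had 5 reads or fewer in every library. No name of miR173 or miR828 was among the 69 known miRNAs of the count tables.

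The families miR160 and miR167 act on auxin response factor genes directly, as tasiRNAs of TAS3 do. Of their 6 names, all tested, 3 were higher and 1 lower in SS by edgeR's test with TMM, with a median log2 fold change of 0.01, where 34.6% of all 52 were higher and 17.3% lower. By the authors' library totals 4 were higher and 1 was lower, where 63.5% of all 52 were higher and 5.77% lower. With RLE, and likewise with no factor, the balance turned to 1 higher and 2 lower, where RLE called 26.9% of all 52 higher and 21.2% lower, and no factor 28.8% and 25%. bna-miR167d rose by 0.32 ± 0.05 (SE, edgeR adjusted p = 1.07e-08), a size next to that of ath-miR390a-5p, while ath-miR160a-5p fell by 2.78 ± 0.27 (SE, edgeR adjusted p = 7.10e-17). The fall of ath-miR160a-5p rested on few reads, 17 and 11 in the SS libraries, against 81 and 86 in the LS libraries. The other 2 called names, ath-miR167a-5p and ptc-miR167f-5p, had log2 fold changes of 0.15 and 0.11 with TMM, and with no factor they were at 0.01 and -0.02 without a call. The call of ath-miR160a-3p, the opposite arm, reversed with the scaling. It was at -0.09 with TMM without a call, called lower at -0.19 with RLE and -0.22 with no factor, and called higher at 0.21 with the authors' library totals. aly-miR160b-3p, also a 3p arm, was at -0.29 with TMM and had no call in any of these scalings. Whether these 3p arms act on auxin response factor genes was not tested, though the counts above include them. Among these 2 families and the 2 members, ath-miR390a-5p, ath-miR391-5p and bna-miR167d were called higher with TMM, RLE, no factor and the authors' library totals. This was not particular to them. All 14 of 52 miRNAs called higher with RLE (26.9%), these members included, were also called higher in the other scalings. ath-miR156a-5p, ath-miR157a-5p and ath-miR164a were among them.

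In the degradome, miR390 had 3 entries in the SS table, under the name bra-miR390-5p, and 0 in the LS table, while miR391 had 0 in both. Each line had 1 degradome library, so the lines have no replicate check. The entries were position 77 of BnaA01g27230D with a score of 4, position 77 of BnaC01g34700D with a score of 4, and position 488 of BnaA09g50920D with a score of 3. All 3 had category 0 and a p-value of 0.032, as the authors give them. Lower scores mean closer pairing, and category 0 is usually given to the position with the most cut ends on its mRNA, but the scheme is not given in the sources used here. The gene table used here holds none of the 3 identifiers, so the mRNAs carry no gene name, and whether any is a TAS3 transcript was not tested. No other miRNA was assigned to these 3 mRNAs.

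For 2 of the 3 sites the LS table could not have listed an entry. That table stops inside an entry at BnaA09g07450D, with its targets in ascending order, and both BnaA09g50920D and BnaC01g34700D come after that point. BnaA01g27230D lies before it and was listed for SS alone. In that range 53 of 83 pairs of a known family and an mRNA in SS were also in LS, which is 63.9%, and 49 of the 56 pairs of category 0, which is 87.5%. The BnaA01g27230D site was thus among 7 pairs of category 0 that the LS table did not list in that range. A site missing from a table may lie under a threshold of the authors, and the tables used here give no read numbers at sites, so a difference in cleavage between the lines was not tested.

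Among the SS entries of known miRNAs, those of miR390 stood towards the weak end by score, and within category 0 at the weak end by p-value. Their scores of 3, 4 and 4 compare with a median of 2 over the 382 entries of known miRNAs in SS, of which 35.9% had 3 or more and 18.8% had 4 or more. Their p-value of 0.032 was above that of all 264 other category 0 entries of known miRNAs in SS, whose largest was 0.024. Over all categories the largest was 0.048. A shared p-value was common, since 25 of 41 combinations of a miRNA name and a category with at least 2 entries held a single p-value. Category 0 itself was common, held by 69.9% of the 382 entries.

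The sites printed above for BnaA01g27230D and BnaC01g34700D, on chromosomes A01 and C01 by their identifiers, were identical base for base and at the same position. The A and C chromosomes of rapeseed come from different parent species, and identical sites on both were common, since 74.3% of the 382 known entries had one in the other subgenome, 29.6% at the same position. With miR390 these sites formed 17 Watson-Crick pairs and 4 mismatches, at miRNA bases 1, 13, 15 and 18. They were 2 of only 3 entries of known miRNAs in SS with 4 or more mismatches. miRNA bases 2 to 12 were paired without a break, as in 64.1% of the 382 entries. This stretch includes bases 10 and 11, between which a plant miRNA directs the cut, and the unpaired bases other than the first lay in the 3′ part of the miRNA.

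The site on BnaA09g50920D was 22 bases long, with 18 Watson-Crick pairs, 2 wobble pairs at miRNA bases 17 and 19, and 1 mismatch at base 13. The authors' alignment placed 1 unpaired mRNA base after miRNA base 4, inside the seed. A bulge at any place was in 35.6% of the 382 entries. Base 13 was unpaired in all 3 miR390 entries and in 15 of the 382 entries, which is 3.93%. Bases 9 to 11 were paired in all 3, as in 97.6% of the 382.

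miR390 was the 9th of 39 families by mean RPM in SS and had 3 listed mRNAs in the SS degradome. The median was 2 over all 39 families and 9 over the 20 families with any. Of these 20, 16 had more than miR390, 1 had as many and 2 had fewer. Of the 8 families more abundant in SS than miR390, 4 had more and 4 had none. miR391, the 18th of 39 by level in SS, was among 19 families with none. Of the families more abundant in SS than miR391, 7 had none either, and 10 of the less abundant ones had at least 1. The degradome tables list mRNAs under gene identifiers, and which non-coding transcripts were searched is not given in the sources used here.

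**Figure D4:**
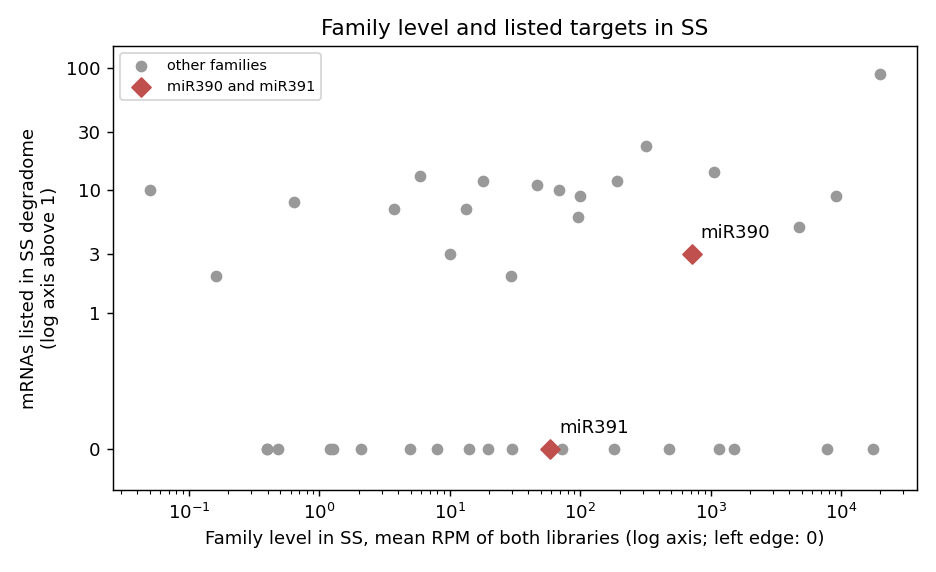
Number of mRNAs listed in the SS degradome for each of the 39 known miRNA families against the family's mean level in the SS small RNA libraries (the family with a level of 0, miR319, is drawn at the left edge). miR390 sits at 714 RPM with 3 mRNAs and miR391 at 58.7 RPM with 0.

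Across all settings tried, the direction and the call of both members held. How many other miRNAs kept theirs in every setting was not counted, but it was not particular to the members. All 13 of 52 miRNAs that DESeq2 called higher (25%), both members included, were called with limma-voom and with the LS libraries summed. They were also called with TMM, RLE, no factor and the authors' library totals. The log2 fold change lay between 0.20 and 0.63 for ath-miR390a-5p and between 0.43 and 0.86 for ath-miR391-5p, with the lowest value under no factor and the highest under the authors' library totals. The largest adjusted p was 0.00457 for miR390 and 0.00408 for miR391, both from edgeR with the replicate number as a block. The DESeq2 adjusted p was 6.32e-05 for miR390 and 0.00405 for miR391. Of all 52 miRNAs DESeq2 called 25% higher and 38.5% in either direction, but it gave some of them no adjusted p. Its shares among the rest are therefore larger. In each setting miR391 had the larger log2 fold change of the pair.

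**Figure D5:**
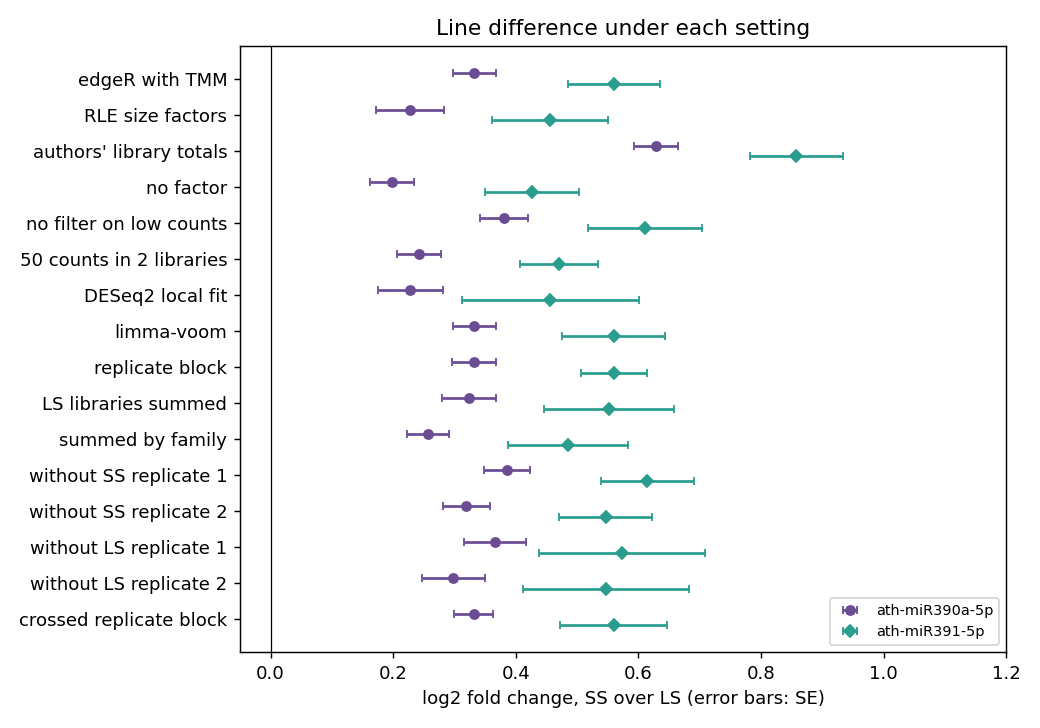
Log2 fold change of SS over LS with its SE for ath-miR390a-5p (circles) and ath-miR391-5p (diamonds) under edgeR with TMM and each alternative. All points lie above 0, from 0.20 to 0.63 for miR390 and from 0.43 to 0.86 for miR391.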

How the data were processed

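Small RNAs of 18 to 30 nt were sequenced from 10 µg of total RNA in 4 libraries, and the degradome from about 200 µg in 2, per the labels' protocols. The deposited counts are whole reads per known miRNA, not normalized, with a library total beside them, per the file headers. The deposited RPM values are the count per 1000000 reads of the library total, and 0.01 stands in for a count of 0. Per the file headers, the deposited log2 fold change is SS over LS and the deposited p-value compares 1 library with 1 library. The deposited degradome entries give a position, score, category and p-value per miRNA and mRNA. The sources used here name no aligner, miRNA database, genome build or degradome program.

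Tests used edgeR 4.0.16 (quasi-likelihood, TMM) in R 4.3.3, adjusted over all 52 tested miRNAs. The SE is the log2 fold change divided by the square root of F. Alternatives were RLE, no factor, library totals, other filters, DESeq2 1.42.0, limma-voom (limma 3.58.1), a replicate block, sums by family, LS summed, and each library left out, plus a crossed block and Fisher's exact test chosen after the data were seen. Intervals cover counting error only. Members, lists and the rule for named miRNAs (both members, the listed families, the 3 nearest profiles, and all targets of the members) were chosen with earlier results of these data known. Predicted miRNA counts were not used.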

Additional observations from a re-analysis of the deposited data

How the results depend on the processing

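Leaving out each library in turn gave a log2 fold change of 0.30 to 0.39 for ath-miR390a-5p and 0.55 to 0.61 for ath-miR391-5p, where the spread of a lone library was taken from the other line. With the replicate number as a block, the values were 0.33 and 0.56, and 23 miRNAs passed in place of 27. Deviations of same-numbered libraries had a correlation of -0.25 over 52 miRNAs, and with crossed numbers as a block 25 passed. The labels give the number no further meaning. The number past the test was within 1.5 times 27 in all settings, from 18 of 32 families to 36 with the authors' library totals. The share of miR391 differed by 0.951 to 1.13 points when each library was left out. On the summed reads it differed by 1.04 points and passed Fisher's exact test (p = 0.0128), where the exact permutation test could not pass. Of the 3 miR390 entries in SS, 1 was left when both tables ended at BnaA09g07450D, the point where that of LS stops, and all 3 stayed when limited to category 0 to 2 or to a p-value under 0.05. The 210 to 380 reads of miR391 per library limit its precision, with an SE of 0.08 against 0.04 for miR390 with TMM.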
